A study of Mus musculus with 3 samples.

Results

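Genes of the red cell lineage, 8 in all, were followed through 3 maps of H3K9ac in mouse haematopoietic stem cells (HSCs). Gata1, Klf1, Gfi1b and Zfpm1 encode regulators, and Hba-a1, Hbb-bs, Alas2 and Slc4a1 encode products of the mature lineage. The members were chosen by name, not by their summits, though with earlier results of these data known. They are 8 of 21887 protein-coding gene records. Every summit inside the RefSeq record of a member or within 20 kb of its ends was taken, an interval called the window here. H3K9ac is an acetylation of histone H3 found at active promoters and enhancers, and CUT&Tag maps it with an antibody that tethers a transposase to the mark.

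The series concerns blocking sphingosine metabolism in HSCs of aged mice. Each of the 3 groups was a single library, made from 50000 sorted HSCs of wild-type mouse bone marrow after red cells had been lysed. The old HSC ABC and old HSC groups came from mice read as 18 to 24 months of age, and the young HSC group from mice of 2 to 4 months. The labels do not say what ABC stands for, nor the sex of the mice or whether animals were pooled. With 1 library per group no difference below has a replicate check, and no test was run. Each peak name also contains a sample name, and these go against the labels. The list labelled old HSC ABC carries the name oHSC-H3K9ac-2, the list labelled old HSC carries oHSC-ABC-H3K9ac-1, and the list labelled young HSC carries oHSC-H3K9ac-1. Every direction below therefore holds for the libraries as labelled, called ABC-labelled, old-labelled and young-labelled. If the inner names were right, no list would be from young mice.

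The ABC-labelled list held 45386 summits, the old-labelled list 108787 and the young-labelled list 33248. Read depth was unknown, so each count was repeated on equal-length lists, the 33248 highest-scoring summits of each library. Each summit carries the authors' score, which is used only to place it within its own list, where rank 1 is the strongest. A start-site summit is one within 1 kb of a RefSeq transcription start, or of a record end where no start was given (Slc4a1 among the members). A start-site summit stood at 6 of 12 HSC markers in the ABC-labelled library, at 11 in the old-labelled one and at 9 in the young-labelled one. Of 8 neutrophil markers 3, 7 and 3 had one, of 6 megakaryocyte markers 2, 4 and 1, and of 6 genes of other tissues 0, 3 and 0, in the same order of libraries. No marker of the B cell list (4 genes) or of the T and NK cell list (4 genes) had one in any library. The shares of all protein-coding genes were 45.3%, 57.5% and 44.2% in the same order. In equal-length lists the HSC marker counts were 6, 8 and 9, so the old-labelled library no longer led. The megakaryocyte marker counts were 1, 2 and 1 there.

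GATA1 is the zinc-finger factor on which red cell development depends, and FOG1, the product of Zfpm1, is its cofactor. KLF1 binds CACC boxes of the adult beta-globin promoter and of many other red cell genes. GFI1B is a repressor that recruits histone-demethylase and deacetylase complexes. The products are the adult globin chains (Hba-a1 and Hbb-bs), the erythroid enzyme that opens haem synthesis (Alas2) and the band 3 anion exchanger of the red cell membrane (Slc4a1). HSCs are known to express some regulators of several lineages at a low level, while globin, band 3 and Alas2 transcripts accumulate only in committed precursors.

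The promoters of 5 members are shown, 3 of regulators with a start-site summit in at least 1 library and 2 of globin genes with none. Those of Zfpm1, also such a regulator, and Alas2, also without a start-site summit, were counted below but are not printed. Each stretch is the 250 bases before the RefSeq start (GRCm38.p6, the assembly of mm10), read 5′ to 3′ on the gene's strand. They lie at chrX:7967911-7968160, minus strand for Gata1, chr8:84901732-84901981, plus strand for Klf1, chr2:28621983-28622232, minus strand for Gfi1b, chr11:32283422-32283671, plus strand for Hba-a1 and chr7:103827929-103828178, minus strand for Hbb-bs. Capitals mark matches to a GATA motif on either strand, searched as the letters GATA with A or T before them and A or G after them.
Gata1: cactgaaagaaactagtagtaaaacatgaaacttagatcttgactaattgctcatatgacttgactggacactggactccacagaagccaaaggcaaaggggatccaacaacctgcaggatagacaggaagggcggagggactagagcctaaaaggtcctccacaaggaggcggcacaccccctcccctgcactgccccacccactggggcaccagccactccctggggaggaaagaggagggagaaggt
Klf1: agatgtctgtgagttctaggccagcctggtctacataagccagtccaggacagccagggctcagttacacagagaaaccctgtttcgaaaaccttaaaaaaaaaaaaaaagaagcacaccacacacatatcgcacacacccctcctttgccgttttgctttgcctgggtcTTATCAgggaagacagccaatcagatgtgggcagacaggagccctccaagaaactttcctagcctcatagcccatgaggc
Gfi1b: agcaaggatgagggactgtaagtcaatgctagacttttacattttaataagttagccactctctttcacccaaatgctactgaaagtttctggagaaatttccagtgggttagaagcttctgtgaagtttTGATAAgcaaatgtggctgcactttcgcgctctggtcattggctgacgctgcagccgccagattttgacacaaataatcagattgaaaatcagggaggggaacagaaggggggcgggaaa
Hba-a1: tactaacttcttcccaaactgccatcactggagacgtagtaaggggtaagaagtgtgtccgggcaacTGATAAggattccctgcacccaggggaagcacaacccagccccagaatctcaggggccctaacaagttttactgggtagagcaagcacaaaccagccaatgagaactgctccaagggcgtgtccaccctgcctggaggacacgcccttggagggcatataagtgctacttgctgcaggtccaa
Hbb-bs: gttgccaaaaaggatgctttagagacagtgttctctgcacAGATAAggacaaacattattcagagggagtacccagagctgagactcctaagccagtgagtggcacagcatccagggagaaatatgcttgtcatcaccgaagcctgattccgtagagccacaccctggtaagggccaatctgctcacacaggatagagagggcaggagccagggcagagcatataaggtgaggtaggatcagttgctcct
Of the 7 members with a promoter in the table, 5 held a GATA motif in these 250 bases (the 4 marked above and Alas2), against 23.6% of 21263 promoters of protein-coding genes. The KLF motif CCNCNCCC, searched on both strands, was also present in 5 of the 7 (Gata1, Gfi1b, Zfpm1, Hbb-bs and Alas2), against 52.9% of all promoters. It overlaps no GATA match in these promoters, while some of the Alas2 matches overlap each other. Genes with and without a summit thus both held these letters: Klf1, Gfi1b, Hba-a1 and Hbb-bs each had 1 GATA match. The Zfpm1 promoter stood apart in composition, with 28 CpG dinucleotides and 73.2% G+C, while the other 6 held 2 to 5 CpG and 44.4% to 54.0% G+C. The medians over all promoters were 10 CpG and 55.6% G+C.

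Across the 8 windows the ABC-labelled list had 18 summits, the old-labelled list 44 and the young-labelled list 10. Relative to list length these were 3.97 per 10000 summits in the ABC-labelled library (95% Clopper-Pearson interval 2.35 to 6.27), 4.04 in the old-labelled library (2.94 to 5.43) and 3.01 in the young-labelled library (1.44 to 5.53). The intervals overlap and cover counting error only, without the spread between members or libraries. In equal-length lists the counts were 14, 15 and 10. A window summit was present at 7 of 8 members in the ABC-labelled and in the old-labelled list and at 5 in the young-labelled list, against 76.1%, 81.7% and 72.0% of all protein-coding genes. The median member had 2, 5 and 1 summits per window, where the median gene had 3, 6 and 2.

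Window counts differed less between equal-length lists than between the lists as deposited. More window summits in the old-labelled than in the young-labelled list were found at 6 members, against 75.5% of all genes, and fewer at 0, against 1.35%. In equal-length lists 3 members (Gata1, Klf1 and Zfpm1) had more in the old-labelled list, against 25.6%, and Hba-a1 had fewer, against 27.5%. The ABC-labelled list had more than the old-labelled list at 0 members, against 3.34% of all genes, and fewer at 6, against 71.8%. In equal-length lists it had more at 2 (Hba-a1 and Slc4a1) and fewer at 3 (Gata1, Gfi1b and Zfpm1), where each direction was met at 26.8% of all genes. Set against the young-labelled list, the ABC-labelled list had more at 5 members, against 43.4%, and fewer at 0, against 15.5%. In equal-length lists these were 4, against 26.2%, and 1 (Gfi1b), against 28.3%.

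Gata1 and Slc4a1 were the members whose windows were filled in some libraries and empty in others. Both had a window summit in the old-labelled and not in the young-labelled list, a pattern met at 9.92% of all genes, with 0 members the other way, against 0.132%. Both also had one in the ABC-labelled and not in the young-labelled list, against 6.05%, with 0 the other way, against 1.86%. Between the ABC- and old-labelled lists no member differed, against 0.407% of genes with an ABC-labelled summit alone and 6.01% with an old-labelled one alone. In equal-length lists 2 of the 4 old-labelled window summits of Gata1 were left, one at its own start and one at the start of Hdac6, and none in the ABC-labelled list. Its window was thus filled in the old-labelled list alone, against 4.35% of genes relative to the young-labelled and 4.14% relative to the ABC-labelled list. Slc4a1 kept its ABC-labelled summit there, against 3.34% relative to the old-labelled and 4.26% relative to the young-labelled list. No member had a window summit in the young-labelled equal-length list alone, against 3.02% of genes relative to the old-labelled and 3.73% relative to the ABC-labelled list.

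**Figure D1:**
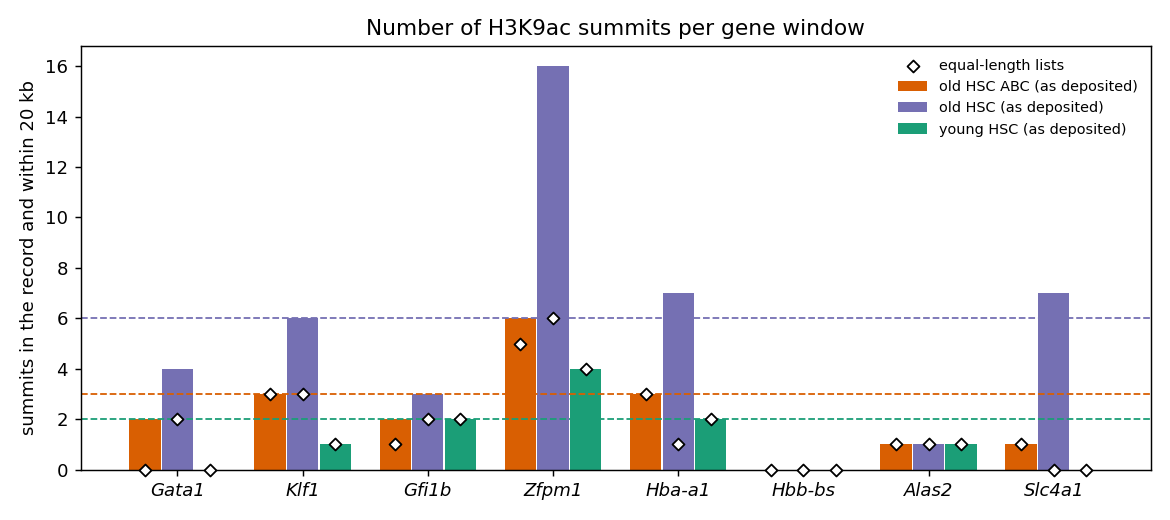
Number of H3K9ac summits in the window of each gene (y axis), by gene and library (old HSC ABC, old HSC and young HSC as bars from left to right); diamonds give the equal-length lists and dashed lines the median over all protein-coding genes in the colour of the library. Zfpm1 has the tallest bars, with 6, 16 and 4 summits, and Hbb-bs has none in any library.

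At start sites the members stood near the share of all genes in the old-labelled list and below it in the young-labelled list. Old-labelled start-site summits were found at 5 of 8, all 4 regulators and the product Slc4a1, against 57.5% of all genes. The Slc4a1 call rests on a summit near a record end (score 1.89, rank 105012 of 108787). Whether that end is its start is not resolved here, so this call may not be at a start. The young-labelled list had none at any of the 8, against 44.2% of all genes. In equal-length lists these counts were 3, against 48.4%, and 0, against 44.2%. Old-labelled calls without a young-labelled one were thus made at 5 of 8 members, against 14.5% of all genes. Because no member had a young-labelled one, the closer comparison is with the 12207 genes that had none there: 25.9% of those had one in the old-labelled library. In equal-length lists 3 members, Gata1, Gfi1b and Zfpm1, remained on the old-labelled side, against 6.62% of all genes and 11.9% of the genes with none in the young-labelled library. The reverse pattern, with a young-labelled start-site summit alone, was met at 0 members and at 1.14% of all genes, or 2.47% in equal-length lists.

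The ABC-labelled library had start-site summits at 2 of 8 members, Klf1 and Gfi1b, against 45.3% of all genes, and in its equal-length list at Klf1 alone, against 42.6%. Another 3 members, Gata1, Zfpm1 and Slc4a1 (by a record end), had one in the old-labelled library and not in the ABC-labelled one, against 13.9% of all genes. In the other direction there were 0 members, against 1.67% of all genes. In equal-length lists 3 members (Gata1, Gfi1b and Zfpm1) were on the old-labelled side, against 8.15% of all genes, and Klf1 was on the ABC-labelled side, against 2.42%, or 4.68% of the genes with none in the old-labelled equal-length list. Set against the young-labelled library, 2 of 8 members had a start-site summit in the ABC-labelled library alone, where 5.44% of all genes did and 9.75% of the genes with none in the young-labelled library. The young-labelled library alone had one at 0 members, against 4.4% of all genes. In equal-length lists Klf1 was the 1 member on the ABC-labelled side (4.04% of all genes and 7.25% of those with none in the young-labelled library), with 0 on the other side, against 5.62%. These comparisons share libraries, so they are not independent of each other. The neutrophil and other-tissue marker counts given above were also highest in the old-labelled library, and in equal-length lists they were 3, 7 and 3 for neutrophil and 0, 0 and 0 for other-tissue markers in the ABC-, old- and young-labelled lists. Their part in these differences was not tested. In a pool of cells, a strong mark in few cells and a weak mark in many cannot be told apart.

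**Figure D2:**
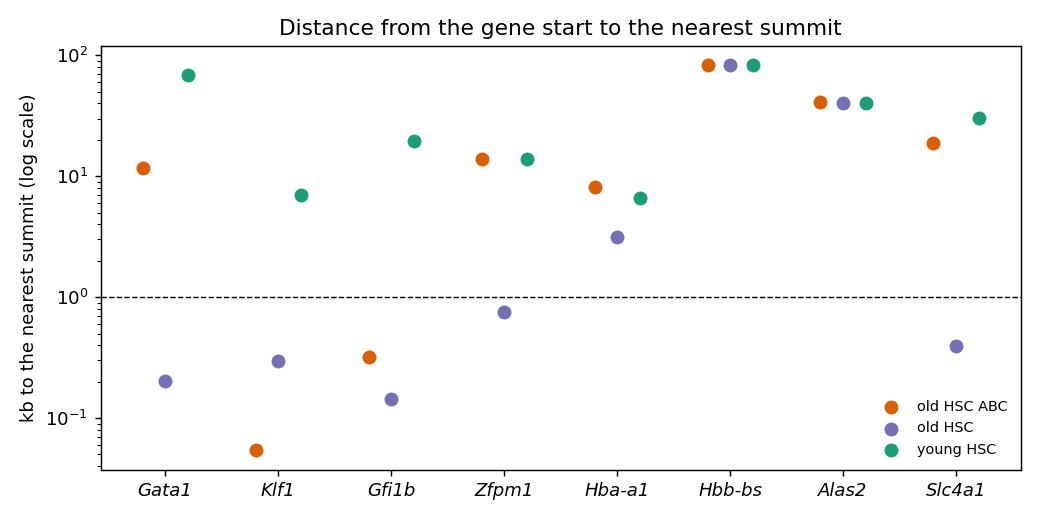
Distance in kb from the start site of each gene (from the nearer record end for Slc4a1) to the nearest summit, on a log scale, by gene and library; the dashed line is the 1 kb limit. In the old HSC ABC library 2 genes lie below the line, in the old HSC library 5 and in the young HSC library 0.

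Gata1 (chromosome X, 7959260 to 7976663, minus strand, start at 7967910) had no young-labelled summit in its window, and the nearest one lay 59580 bp beyond the record. In the old-labelled list a summit stood 204 bp downstream of the start (7967706, score 6.79, rank 27369 of 108787). Further old-labelled summits lay 8108 bp downstream, near the end of the gene (score 4.07), and 1213 bp upstream (2.35). The ABC-labelled list had none in the record, and its nearest was a weak summit 11744 bp downstream of the start (score 2.19, rank 40251 of 45386). The old-labelled summit at 7947697 (score 9.34) lay 192 bp from the start of the neighbour Hdac6, a cytoplasmic deacetylase, where the ABC-labelled list had a weak one (1.78) and the young-labelled list none. Chromosome X, which also carries Alas2, held 608 summits of the ABC-labelled, 1169 of the old-labelled and 500 of the young-labelled list. Of its 966 protein-coding genes, 29.3%, 38.8% and 27.3% had a start-site summit in these libraries, fewer than the 45.3%, 57.5% and 44.2% of all genes.

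Klf1 (chromosome 8, 84901982 to 84905291, plus strand) was the one member whose start was closer to an ABC-labelled than to an old-labelled summit. The ABC-labelled summit lay 54 bp downstream of the start (84902036, score 3.95, rank 22356 of 45386), just after the promoter bases printed above. The old-labelled list had a weak summit at 298 bp (84902280, score 2.27, rank 97417) and a stronger one at 1105 bp (84903087, score 10.6, rank 15611), inside the gene but outside the 1 kb limit. The absence of Klf1 from the old-labelled equal-length count therefore turns on that limit. In the young-labelled list the nearest summit was 6980 bp from the start. It lay 207 bp from the start of Dnase2a, a lysosomal nuclease that clears DNA of expelled red cell nuclei in macrophages, and this site was called in all 3 lists, at ranks 4238, 5735 and 6410 in the ABC-, old- and young-labelled lists. The start of Gcdh, a glutaryl-CoA dehydrogenase gene on the other side, had a summit in the ABC-labelled list (84893734, score 10.5) and in the old-labelled list (84893775, score 17.7) and none in the young-labelled list. Within Mast1, a kinase gene, the old-labelled list alone had a window summit (84913343, score 4.06).

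Gfi1b (chromosome 2, 28609450 to 28621982, minus strand) had its start-site summits 321 bp downstream of the start in the ABC-labelled list (28621661, score 2.75, rank 34093) and 144 bp downstream in the old-labelled list (28621838, score 10.5, rank 15724). The 2 positions are 177 bp apart. The ABC-labelled one fell just outside its equal-length list, whose lowest score was 2.84. The young-labelled list had no summit in the record. Its window summits were one 10817 bp beyond the downstream end (28598633, score 3.81), with an old-labelled counterpart at 28598204 (4.59), and one at the start of Tsc1, the hamartin gene of the mTOR pathway, which all 3 lists shared at ranks 3476, 6633 and 4194 in the ABC-, old- and young-labelled lists.

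Zfpm1 (chromosome 8, 122281856 to 122337862, plus strand), the longest record of the set at 56007 bp, had 6 window summits in the ABC-labelled, 16 in the old-labelled list and 4 in the young-labelled list. In equal-length lists the counts were 5, 6 and 4. Within 2 kb of the start the old-labelled list had 3 summits and the others 0: one lay 755 bp upstream (122281386, score 6.75, rank 27524), and the others 1279 and 1922 bp downstream. All 3 lists held a summit in the body of the gene 13.9 kb downstream of the start, at 122296051 in the ABC-labelled list (score 6.89, rank 9932), 122296049 in the old-labelled list (15.6, rank 10400) and 122296052 in the young-labelled list (4.13, rank 17808). These 3 positions span 3 bp. Of the young-labelled summits that had a neighbour within 500 bp in both other lists (17487 of 33248), 9.24% had both neighbours within 5 bp, and the median of the larger distance was 143 bp. A second body site, 20.9 kb downstream, was called in the ABC-labelled list (122303046, score 3.09) and in the old-labelled list (122303042, 5.56), 4 bp apart. Beyond the far end of the gene a site called in all 3 lists had scores of 1.89 in the ABC-labelled (122350013, rank 43204), 10.2 in the old-labelled list (122350034, rank 16306) and 6.91 in the young-labelled list (122349962, rank 9765). There the ABC-labelled summit was close to the bottom of its list. At Trhr2, a thyrotropin-releasing hormone receptor gene, the old-labelled (122356111, score 13.3) and young-labelled lists (122356345, 3.59) had a window summit and the ABC-labelled list had none.

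**Figure D3:**
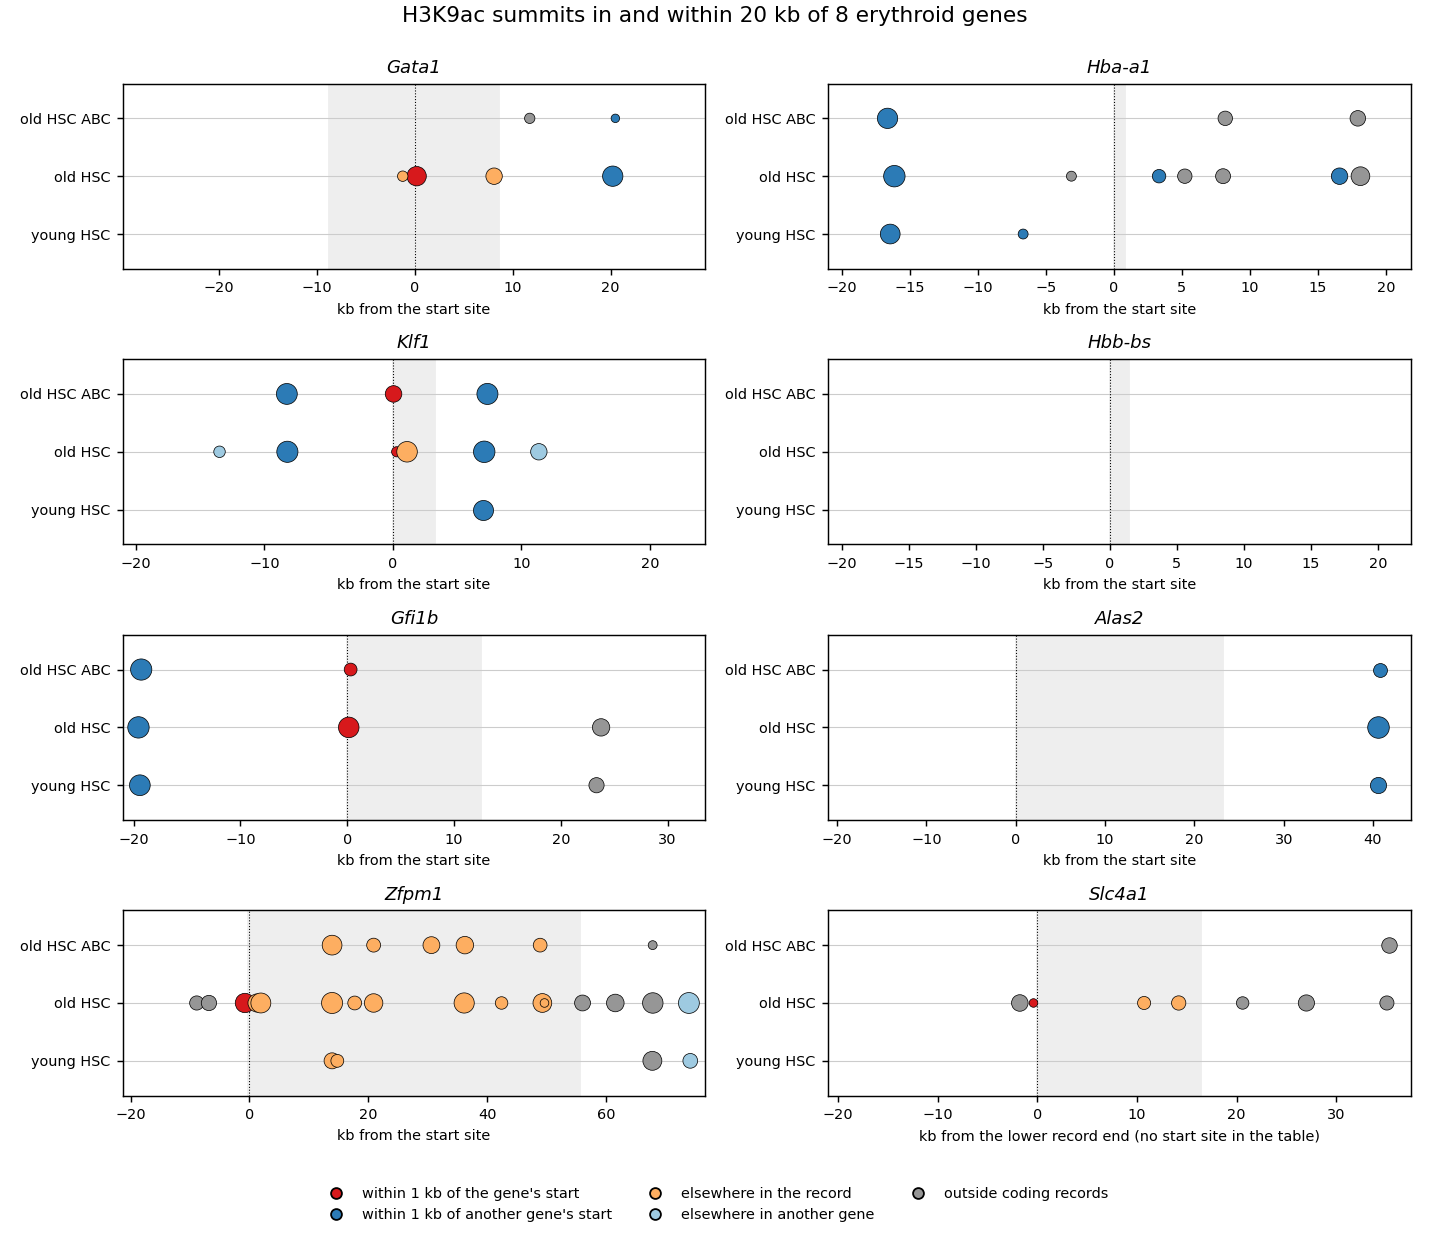
Summits of each library (rows: old HSC ABC, old HSC, young HSC from top to bottom) against distance in kb from the start site, positive downstream; for Slc4a1 the distance is from the lower record end. Grey marks the gene record, larger points stand higher in their own list, and colours give the place of the summit. Red points, within 1 kb of the gene's own start or record end, occur 2 times in the old HSC ABC row, 5 times in the old HSC row and 0 times in the young HSC row.

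Among the products, no summit of any list lay in the record of Hba-a1, Hbb-bs or Alas2. A summit inside the record was present at 3, 5 and 1 of the 8 members in the ABC-, old- and young-labelled lists. The shares of all genes were 57.3%, 69.0% and 53.2%. The records of Hba-a1 and Hbb-bs are only 815 and 1406 bp long, and these shares were not counted by record length. Hba-a1 (chromosome 11, 32283672 to 32284486), one of the 2 adult alpha-globin genes, had 3 window summits in the ABC-labelled, 7 in the old-labelled list and 2 in the young-labelled list. The nearest to its start were 8194 bp away in the ABC-labelled, 3119 bp in the old-labelled list and 6668 bp in the young-labelled list. The strongest ABC-, old- and young-labelled ones stood 673, 172 and 476 bp from the start of Nprl3, the neighbouring gene whose introns are known to hold the alpha-globin enhancers, at ranks 7623, 5990 and 7262 of these lists. The whole Nprl3 record held 4, 8 and 1 summits in the ABC-, old- and young-labelled lists. One body site of Nprl3 was called in the ABC-labelled list (32247137, score 3.21) and in the old-labelled list (32247292, 5.74), and another at 32255975 (2.23) and 32256145 (3.67). The old-labelled list also had summits at the starts of the theta-globin genes Hbq1b (32286998, score 3.03, rank 77232) and Hbq1a (32300270, 4.10, rank 54322). The young-labelled list had one at the embryonic gene Hba-x (32277004, score 2.17, rank 30115 of 33248). Hba-a1 and its copy Hba-a2 have promoters that are 98.0% identical over 303 aligned positions, so reads there can map to both genes. No source used here says how the authors treated such reads, and the effect on these counts was not tested.

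Hbb-bs (chromosome 7, 103826523 to 103827928), an adult beta-globin gene, was the one member with no summit in its window in any list. A total of 17.8% of all genes had none, and 63.2% of the 2583 genes with records of up to 2000 bp. The empty stretch was wider than the window. No list had a summit from 20 kb below Hbb-bt to 20 kb above the embryonic gene Hbb-y (103792524 to 103873207), so every beta-like globin gene of the cluster was without one. The nearest summits to Hbb-bs lay 82895, 82481 and 82641 bp away in the ABC-, old- and young-labelled lists, all on the same side at 103910823, 103910409 and 103910569. The promoters of Hbb-bs and Hbb-bt were 72.7% identical over 311 aligned positions, less than the alpha-globin pair.

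Alas2 (chromosome X, 150547417 to 150570622, plus strand) had 1 window summit in every list, and it was at another gene. These summits, at 150588187 in the ABC-labelled, 150587989 in the old-labelled list and 150588011 in the young-labelled list, were 40.8, 40.6 and 40.6 kb downstream of the Alas2 start, and the young-labelled one lay 232 bp from a start of Pfkfb1, a phosphofructokinase-2 gene. They also fall in the record of Apex2, a DNA repair nuclease gene whose record runs across Alas2 and ends at 150588206, close to these summits. The summits therefore cannot be assigned to Pfkfb1 or Apex2 alone. Their scores were 3.09 (rank 30986 of 45386), 30.6 (rank 4383 of 108787) and 4.26 (rank 17253 of 33248) in the ABC-, old- and young-labelled lists.

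Slc4a1 (chromosome 11, 102348820 to 102365281) had 1 window summit in the ABC-labelled list, 7 in the old-labelled list and none in the young-labelled list, whose nearest was 30066 bp away. All 7 old-labelled ones stood in the middle or lower part of the list, the best at rank 53569 of 108787 (102347056, score 4.16), and none reached the equal-length list. The one within 1 kb of a record end (102348429, score 1.89, rank 105012) was close to the bottom of the list, and which end is the start is not resolved here. Inside the record were 2 summits (scores 2.89 and 3.34). Another, at 102375828 (score 3.95), lay in the record of Bloodlinc, a long non-coding RNA known from red cell precursors. The ABC-labelled summit (102384139, score 3.57, rank 25953) had an old-labelled neighbour at 102383912 (3.28).

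The best-ranked window summits lay mostly at neighbouring genes. Of the 5 best-ranked window summits in each library, 4 of 5 in the ABC-labelled, 5 of 5 in the old-labelled and 4 of 5 in the young-labelled list lay within 1 kb of the start of another gene. Over all window summits this held for 6 of 18 in the ABC-labelled, 8 of 44 in the old-labelled and 5 of 10 in the young-labelled list. The same shares were not counted over the windows of all genes, so whether this is particular to the members is unknown. Inside the records of the members lay 7 ABC-labelled, 17 old-labelled and 2 young-labelled summits, and the 2 young-labelled ones were both in Zfpm1. Leaving out summits inside the record of another protein-coding gene left 12 in the ABC-labelled, 33 in the old-labelled list and 4 in the young-labelled list.

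In the lists as deposited, positions in the windows recurred between libraries at shares whose 95% Clopper-Pearson intervals all held the share over the whole list. These intervals treat summits as independent and do not cover the spread between members or libraries. Zfpm1 alone gave 6 of the 18 ABC-labelled, 16 of the 44 old-labelled and 4 of the 10 young-labelled window summits. Of the 18 ABC-labelled window summits 83.3% had an old-labelled neighbour within 500 bp (58.6 to 96.4), against 72.4% over the whole list, and of the 44 old-labelled ones 34.1% had an ABC-labelled neighbour (20.5 to 49.9), against 30.3%. Between the old- and young-labelled lists 18.2% of the old-labelled window summits (8.19 to 32.7) and 80.0% of the 10 young-labelled ones (44.4 to 97.5) were shared, against 23.8% and 77.4%. Of these shares 2 depended on list length: in equal-length lists 42.9% of the ABC-labelled window summits had an old-labelled neighbour, and 46.7% of the old-labelled ones had a young-labelled neighbour. The whole-list shares were not recounted for equal-length lists. Whether the windows changed more than the whole lists is therefore unknown. Between the ABC- and young-labelled lists the shares were 33.3% of the ABC-labelled (13.3 to 59.0) and 60.0% of the young-labelled window summits (26.2 to 87.8), against 43.5% and 59.0%.

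To set the members in their pathway, 69 other erythroid genes in 5 lists were counted the same way. The ABC-labelled library had start-site summits at 39 of the 69 (56.5%, against 45.3% of all genes), the old-labelled library at 50 (72.5%, against 57.5%) and the young-labelled library at 39 (56.5%, against 44.2%). Old against young, 13 of the 69 were on the old-labelled side (18.8%, against 14.5% of all genes) and 2 on the young-labelled side (2.90%, against 1.14%). In equal-length lists these were 4 (5.80%, against 6.62%) and 2 (2.90%, against 2.47%), both near the share of all genes. The 4 were Nfe2, a globin-locus transcription factor (score 12.2, nearest young-labelled summit at 3609 bp), the biliverdin reductase gene Blvrb (8.83; 1044 bp), the tropomodulin gene Tmod1 (8.05; 23305 bp) and the water channel gene Aqp1 (6.16; 36039 bp). The 2 on the young-labelled side were Cbfa2t3, a corepressor of the GATA1 and TAL1 complexes (score 9.65), whose nearest old-labelled summit was just outside the limit at 1016 bp, and Hba-x. ABC against old, 12 were on the old-labelled side (17.4%, against 13.9% of all genes) and 1 on the ABC-labelled side (1.45%, against 1.67%). Equal-length lists gave 7 (10.1%, against 8.15%) and 3 (4.35%, against 2.42%). ABC against young, 4 were on the ABC-labelled side (5.80%, against 5.44%) and 4 on the young-labelled side (5.80%, against 4.40%). Equal-length lists gave 3 (4.35%, against 4.04%) and 5 (7.25%, against 5.62%).

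**Figure D4:**
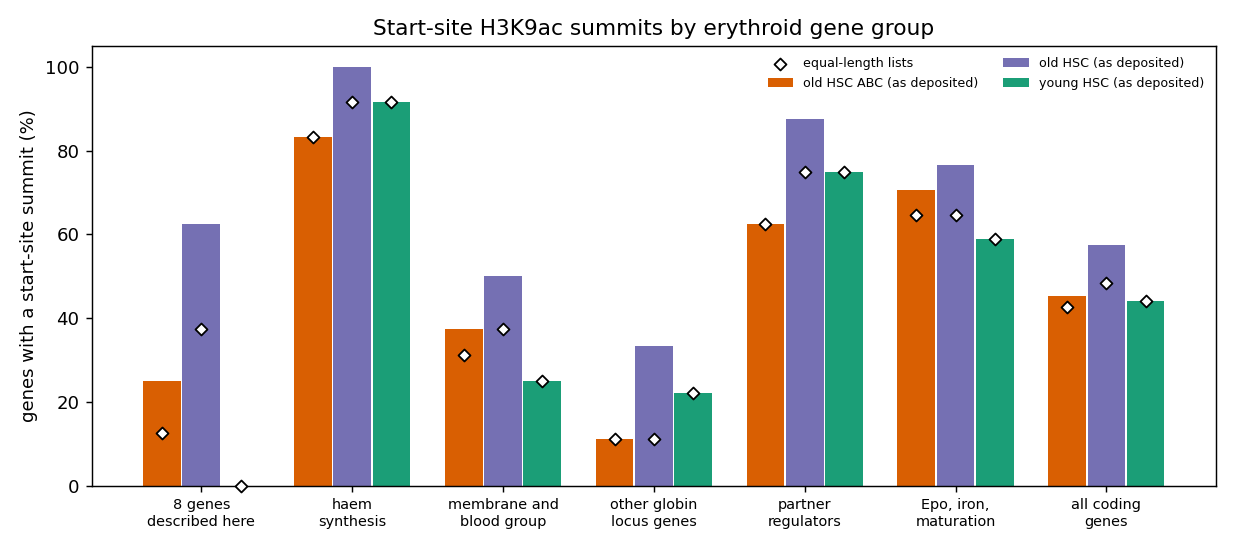
Percentage of genes with a start-site summit (y axis) in each erythroid gene group and over all protein-coding genes, by library (old HSC ABC, old HSC, young HSC from left to right); diamonds give the equal-length lists. The 8 genes described here have one at 2 in the old HSC ABC library, 5 in the old HSC library and 0 in the young HSC library. Slc4a1 is counted by a record end. Haem synthesis genes reach 10 to 12 of 12 in every library.

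Haem synthesis genes were the most widely marked group, with start-site summits at 10, 12 and 11 of 12 genes in the ABC-, old- and young-labelled libraries. Of all genes 45.3%, 57.5% and 44.2% had one. In the same order of libraries Cpox, coproporphyrinogen oxidase, had ranks 1370, 248 and 658, and Uros, uroporphyrinogen III synthase, ranks 436, 841 and 585. Alas1, the housekeeping counterpart of Alas2, was at ranks 2480, 2451 and 1648, whereas Alas2 had no summit in its record in any list. Urod, the next enzyme after Uros, lacked one in the ABC-labelled list, whose nearest was 14872 bp away, and had one 30 bp from its start in the old-labelled list (score 10.7) and 34 bp in the young-labelled list (3.25).

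Partner and upstream regulators were marked at 10, 14 and 12 of 16 genes in the ABC-, old- and young-labelled libraries. The shares of all genes were 45.3%, 57.5% and 44.2%. In that order Tal1, the basic helix-loop-helix partner of GATA1, ranked 421, 2055 and 2603, Runx1 ranked 4212, 1466 and 3680, and Bcl11a, the repressor of embryonic globin genes, ranked 9141, 4266 and 7095. Gata2, which precedes GATA1 in stem and progenitor cells, had a start-site summit in all 3 libraries, at ranks 17748, 14054 and 12315, unlike Gata1. Lyl1 and Myb lacked one in the ABC-labelled list, where the nearest lay at 1441 and 1761 bp. The old-labelled list had them at ranks 12947 and 18270, and the young-labelled list at ranks 11573 and 14135.

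Membrane and blood group genes were marked at 6, 8 and 4 of 16, and other globin-locus genes at 1, 3 and 2 of 9, in the ABC-, old- and young-labelled libraries. In each library both lists stood below the share of all genes (45.3%, 57.5% and 44.2%). Nprl3 was the globin-locus gene marked in all 3. Over these libraries in turn Epb41, which encodes membrane protein 4.1, led the membrane list at ranks 4618, 1620 and 2818. Genes of erythropoietin signalling, iron and late maturation were marked at 12 of 17 in the ABC-labelled, 13 in the old-labelled list and 10 in the young-labelled list. There Tfrc, the transferrin receptor, ranked 12514, 3410 and 9329, Car2 12079, 4338 and 12533, and Bpgm 16357, 4404 and 6194. Epor, the erythropoietin receptor, had no start-site summit in any library, with its nearest summits at 39704 bp (ABC-labelled), 1382 bp (old-labelled) and 4515 bp (young-labelled). Slc11a2, the iron transporter, and Cldn13 had start-site summits in the ABC-labelled list (scores 4.12 and 4.40) and in the old-labelled list (4.79 and 3.52, both outside its equal-length list), and none in the young-labelled list.

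By the best window summit of each gene, expressed as a percentile of its own list, the listed gene nearest to Klf1 over the 3 libraries was Xpo7 (largest difference 1.84 percentile points), that nearest to Gfi1b was Cbfa2t3 (1.91), that nearest to Zfpm1 was Fech (3.94) and that nearest to Alas2 was Slc25a37 (6.75), among 57 genes. The measure covers all members with a window summit in every library. For Klf1, Gfi1b and Alas2 that best summit was the one at a neighbouring gene, and Hba-a1 shares its own with Hbq1b, so the likeness is one of windows and not of the genes.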

How the data were processed

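H3K9ac CUT&Tag was done on 3 libraries, 1 per group. Groups follow the sample titles, whose first letter (y or o) was read as young or old to assign the ages in the protocol. BWA, Picard, MACS2, edgeR and mm10 are named in the submitters' processing notes, with no role or version. Control library, filters and duplicate handling: not given in the sources used here. The authors deposited 1 list of 1-bp summits per library, with a score read here as a −log10 q-value. The lowest score in every list is 1.30, which corresponds to a q-value of 0.05. Scores depend on depth, which was unknown, so they rank summits within a list only.

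Gene records and start sites came from RefSeq tables of GRCm38.p6. Of 21887 protein-coding records on chromosomes 1 to 19, X and Y, 17492 had a start site; record ends served for the others. Window counts, start-site counts, shared summits (within 500 bp) and exact Clopper-Pearson intervals were computed with Python 3.11.15, pandas 2.3.3 and scipy 1.17.1, and promoter identity with Biopython 1.88 global alignment. Counting was tested on simulated data, where 200 of 200 genes were recovered. The alternatives were equal-length lists, scores of at least 5 and 10, merging of summits closer than 500 bp, windows of 5, 10 and 50 kb, leaving out summits inside another gene, start limits of 500 bp, 2 kb and 5 kb, sharing within 250 or 1000 bp and, added after the data were seen, record ends for every gene. The members and lists were chosen with earlier results of these data known. Named were all members, every coding gene with a summit in a window, list genes whose start-site call differed between libraries under both list lengths, the 3 best-ranked per list, and the nearest gene by percentile, of which the text gives a part; Gata2, Epor and Bloodlinc were named after their values were seen. Of 5 erythroid lists, Ahsp had no record.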

Additional observations from a re-analysis of the deposited data

How the results depend on the processing

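Of 90 alternative values, 59 stayed within 1.5 times the reported count or within the interval of the reported share, and 31 moved. These are counts and shares of single lists, which have no direction. Differences between libraries did turn in equal-length lists: Hba-a1 had 1 old-labelled and 2 young-labelled window summits there, against 7 and 2 as deposited, and 3 ABC-labelled against 1 old-labelled one, where the deposited lists had 3 and 7. The start-site call of Klf1, made in the ABC- and old-labelled lists as deposited, was made there in the ABC-labelled list alone. No young-labelled start-site summit appeared at any member with start limits of 2 kb or 5 kb, or with record ends for every gene. The other start-site settings keep or reduce the young-labelled summits counted, so they could not have added one. Start-site counts in the ABC-labelled list were 1 in equal-length lists and 0 with scores of at least 5 or 10, and in the old-labelled list 3 in equal-length lists, 3 with scores of at least 5 and 1 with scores of at least 10. Window summits with scores of at least 5 numbered 5, 19 and 4 in the ABC-, old- and young-labelled lists, and with scores of at least 10 they numbered 3, 10 and 1. In equal-length lists the old-labelled count was 15. With windows of 5 kb the counts were 9, 26 and 3, with 10 kb 11 in the ABC-labelled and 4 in the young-labelled list, and with 50 kb 31, 86 and 19. Members with a window summit numbered 4 (score of at least 5), 2 (at least 10) and 4 (5 kb) in the ABC-labelled list, and 1 (score of at least 10), 2 (5 kb) and 3 (10 kb) in the young-labelled list. No share of all genes was counted under any of these score limits or window sizes. Because scores depend on depth, counts at a fixed score cannot be compared between libraries. Leaving out summits inside another coding record left 4 young-labelled window summits at 2 members. In equal-length lists 42.9% of the ABC-labelled window summits had an old-labelled neighbour, and 46.7% of the old-labelled ones had a young-labelled neighbour, with no whole-list share counted beside them. Fewer summits or shorter windows enter by construction under these settings; for other changes the cause was not tested. Read depth was unknown, and a site absent from a list may lie below its calling threshold. No paired analysis was possible because each group had 1 library.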
